A study of Mus musculus with 44 samples.

Results

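These results describe 1126 stretches of the mouse genome. Their DNA was methylated in the blood of mice given LPS and open, that is little methylated, in the brains of mice given saline. Each stretch is a fixed window of 1 kb, called a tile, in which at least 3 cytosines were measured. Among 78276 autosomal tiles measured in all 3 tissues, a tile was kept when its mean methylation was at most 30% in saline hippocampus and at most 30% in saline cortex and at least 70% in blood taken 12 h after LPS. The members were thus 1.44% of those tiles. The levels of saline brain and of LPS 12 h blood chose the tiles, so these are given below as a description without a test, and the tests use other libraries.

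All 44 libraries came from adult male C57BL/6J wild type mice of 8 to 12 weeks, used to model Gulf War Illness. Every mouse, controls included, drank corticosterone (CORT, the main glucocorticoid of rodents) at 200 mg/L in 0.6% ethanol for 7 days. On day 8 it received DFP (diisopropyl fluorophosphate, which blocks acetylcholinesterase for good) at 4 mg/kg, and CORT was repeated every other week until 5 weeks had passed. The mice were then given lipopolysaccharide (LPS, an endotoxin of Gram-negative bacteria) at 0.5 mg/kg under the skin, or saline. There was no group without CORT and DFP among these libraries. Saline mice were sampled only 6 h after the injection, so the later LPS groups differed from them in time as well as in agent. Whole blood gave 4 saline libraries, 4 LPS libraries of 6 h, 3 of 12 h and 3 of 24 h. Hippocampus gave 3 saline libraries and 4, 3 and 4 after LPS in the same order, and frontal cortex gave 4 in each group. Methylation was read by reduced representation bisulfite sequencing (RRBS), which samples CpG-rich fragments and gives, for each cytosine, the percentage of reads that were methylated.

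Methylation of cytosines in CpG pairs is copied at cell division and is laid down in patterns that differ between cell lineages. A tile that is methylated in one lineage and open in another often marks a regulatory element used by the second. Genes of the Hox clusters, silent in forebrain and used along the body axis and in blood formation, are not an example of this. Their CpG-rich stretches can be methylated or open depending on the tissue, and the Hox members below were open in brain. In whole blood the DNA comes from nucleated white cells, whose proportions can shift within hours. In bulk tissue, a different mix of cells and a change of methylation within cells cannot be told apart, and this holds for every result below.

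The member tiles lay mostly away from gene starts, but 58 held an annotated transcript start, and in a few the promoter itself was covered. The 4 promoters of protein-coding genes with the most cytosines measured in all 3 tissues at 6 h are printed to show what such a stretch looks like. Each runs 5′ to 3′ on the gene's strand, from 250 bases before the start to 50 after it, and comes from RefSeq (GRCm38/mm10). Capitals mark the CpG pairs in which a cytosine was measured.
Arpp21, chr9:112187717-112188016, minus strand: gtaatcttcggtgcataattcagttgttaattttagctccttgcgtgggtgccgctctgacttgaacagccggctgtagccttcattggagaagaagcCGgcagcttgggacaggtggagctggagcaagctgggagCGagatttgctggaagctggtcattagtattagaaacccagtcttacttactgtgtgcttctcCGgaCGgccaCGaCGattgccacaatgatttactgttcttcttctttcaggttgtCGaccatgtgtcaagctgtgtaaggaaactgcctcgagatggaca
4430402I18Rik, chr19:28967783-28968082, minus strand: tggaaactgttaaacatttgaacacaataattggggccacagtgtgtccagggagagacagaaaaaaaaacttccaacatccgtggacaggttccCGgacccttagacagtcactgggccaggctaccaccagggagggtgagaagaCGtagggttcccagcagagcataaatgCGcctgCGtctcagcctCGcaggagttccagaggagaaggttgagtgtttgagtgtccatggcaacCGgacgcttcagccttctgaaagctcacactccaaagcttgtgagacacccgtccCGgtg
Slc6a16, chr7:45240503-45240802, plus strand: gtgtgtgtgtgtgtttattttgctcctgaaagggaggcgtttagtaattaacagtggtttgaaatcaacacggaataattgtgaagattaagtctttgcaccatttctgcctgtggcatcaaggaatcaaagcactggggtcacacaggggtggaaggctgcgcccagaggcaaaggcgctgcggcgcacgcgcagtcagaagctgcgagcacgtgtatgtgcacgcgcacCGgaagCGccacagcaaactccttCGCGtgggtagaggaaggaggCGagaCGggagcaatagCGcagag
Dgka, chr10:128737563-128737862, minus strand: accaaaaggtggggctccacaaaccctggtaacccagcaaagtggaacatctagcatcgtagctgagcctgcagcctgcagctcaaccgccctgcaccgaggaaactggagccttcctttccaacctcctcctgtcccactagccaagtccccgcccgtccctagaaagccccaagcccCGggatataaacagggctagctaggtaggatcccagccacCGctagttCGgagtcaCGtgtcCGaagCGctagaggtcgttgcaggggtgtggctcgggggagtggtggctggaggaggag

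The promoter of Arpp21, a cAMP-regulated phosphoprotein of neurons, was methylated at 74.7% ± 9.47 in LPS 6 h blood and 37.7% ± 2.79 in saline blood (SD, n = 4 each), as a mean over its 9 measured cytosines. It stood at 7.90% ± 1.92 in LPS 6 h hippocampus and 10.3% ± 2.53 in LPS 6 h cortex (n = 4 each). The 7 cytosines at Slc6a16, an orphan member of the neurotransmitter transporter family, averaged 85.2% ± 8.15 in LPS 6 h blood and 25.6% ± 3.74 in saline blood, with 7.38% ± 3.39 in hippocampus and 10.03% ± 3.86 in cortex after LPS (6 h). At Dgka, a diacylglycerol kinase best known from T cells, 6 cytosines averaged 78.4% ± 4.31 in LPS 6 h blood, 21.2% ± 2.76 in saline blood, 6.77% ± 1.03 in hippocampus and 7.55% ± 1.73 in cortex. The 7 cytosines of 4430402I18Rik averaged 84.8% ± 1.91 in LPS 6 h blood and 50.7% ± 3.62 in saline blood, against 14.98% ± 3.09 in hippocampus and 16.1% ± 6.34 in cortex. In each of the 4 promoters the LPS blood libraries lay above all saline blood libraries, and the saline blood libraries above all LPS brain libraries. Single cytosines of the Dgka promoter ran from 65.7% to 86.4% in LPS 6 h blood and from 17.0% to 25.6% in saline blood. Those of Arpp21 varied more, from 38.4% to 88.2% in LPS 6 h blood and from 13.4% to 53.2% in saline blood.

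Promoters in member tiles held fewer CpG pairs than most measured promoters. The 61 promoters that began in one held a median of 7 CpG pairs in 300 bases, against 24 for the 11810 promoters that began in tiles open in all 3 tissues and 6 for the 495 that began in tiles methylated in all 3. The median was 22 for promoters in any measured tile and 7 for all promoters of the reference table, measured or not. The letters CCGG, which read alike on both strands, stood in 70.5% of the promoters in member tiles. They stood in 88.6% of the 13145 promoters that began in any measured tile and in 53.5% of the 31396 promoters of the reference table. A transcript start lay in 58 member tiles, 5.33% of those on the 18 autosomes that the promoter table covers, against 14.1% of all tiles, 40.2% of tiles open in all 3 tissues and 1.41% of tiles methylated in all 3. Inside a protein-coding gene and over 1 kb from any gene's start or end lay 660 members (58.6%, against 38.8% of all tiles). Within 1 kb of a gene's start or end lay 116 (10.3%, against 26.9%), and farther from genes lay 350 (31.1%, against 34.4%). The members had a median of 5 measured cytosines, and 178 of them had 10 or more.

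Members were scattered over all 19 autosomes, at 1.07% to 1.75% of the measured tiles of each, and most stood alone. There were 1037 single tiles, 43 pairs of neighbours and 1 run of 3. Of 352 measured neighbours of a member, 90 were members too, 86 were open in all 3 tissues, 37 were methylated in all 3 and 139 were of other kinds. The run of 3 lay in Agap2, a GTPase-activating protein with high expression in brain, at chr10:127079000-127081999 close to a transcript start, and 6 of the 8 measured tiles of that gene were members. Hoxa3 had 6 members among 15 measured tiles, Hoxb3 had 5 of 11, Tcf4 had 5 of 21 and Runx1 had 4 of 21.

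The saline blood libraries lay between blood and brain at these tiles, which bears on every comparison with saline blood. Their median over the members was 46.2%, 46.5%, 45.5% and 46.2%. Libraries of LPS 6 h blood had 84.7%, 74.9%, 84.4% and 81.2%, those of LPS 12 h blood, used by the rule, had 83.4%, 85.4% and 85.8%, and those of LPS 24 h blood had 84.5%, 87.0% and 80.8%. Every LPS blood library thus stood far above the saline blood libraries, which agreed closely with each other. The lowest LPS library was replicate 2 of LPS 6 h.

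**Figure D1:**
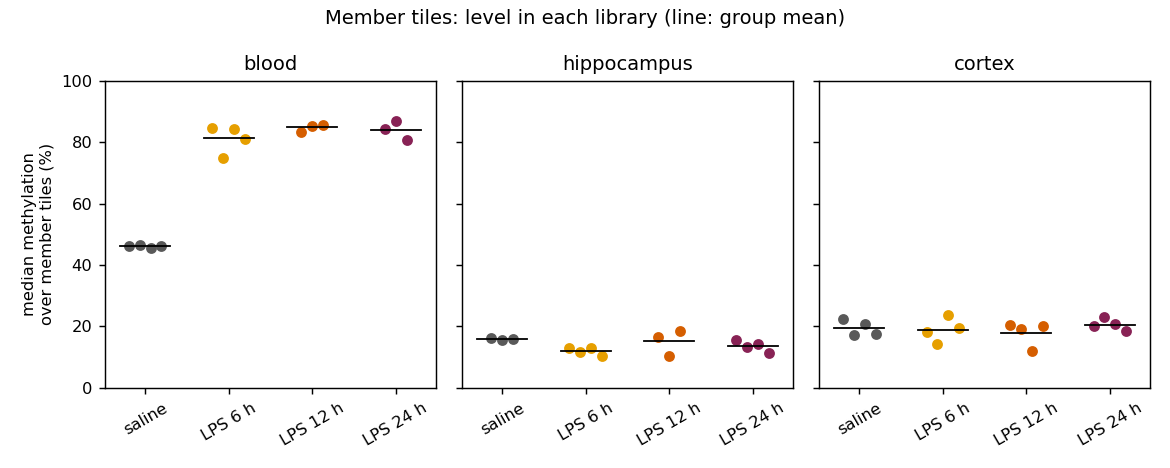
Median methylation (%) over the member tiles, 1 point per library, in blood, hippocampus and cortex, by saline and time after LPS; lines are group means. The 4 saline blood libraries sit at 45.5% to 46.5%, between the LPS blood libraries (74.9% to 87.0%) and the brain libraries, all of which are at most 23.6%; LPS 12 h blood and saline brain were used to choose the tiles.

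All the brain libraries were low. LPS hippocampus libraries of 6 h had medians of 13.1%, 11.8%, 13.1% and 10.3%, those of 12 h had 16.6%, 10.5% and 18.7%, and those of 24 h had 15.5%, 13.3%, 14.2% and 11.4%. LPS cortex libraries of 6 h had 18.2%, 14.4%, 23.6% and 19.5%, those of 12 h had 20.6%, 19.3%, 12.0% and 20.2%, and those of 24 h had 20.1%, 23.0%, 20.8% and 18.5%. Replicate 3 of LPS 12 h cortex stood below the other cortex libraries of its group, and replicate 2 of LPS 12 h hippocampus below its own. In saline brain, which the rule used, the medians were 15.5% to 16.3% in hippocampus and 17.4% to 22.4% in cortex.

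LPS libraries of 6 h and 24 h, which the choice of tiles did not use, also showed the tissue difference. A tile was called when limma, adjusted over all tiles, gave p under 0.05 and the means were at least 5 percentage points apart. By that rule LPS 6 h blood was above LPS 6 h hippocampus in 1107 of 1107 members measured and below it in 0, where 27.9% of all tiles were called higher and 10% lower. It was above LPS 6 h cortex in 1106 of 1107 and below in 0 (all tiles 22.5% and 12.7%). At 24 h blood was above hippocampus in 1083 of 1084 (all tiles 25.3% higher and 9.23% lower) and above cortex in 1095 of 1096 (22.3% and 11.6%), again with 0 members below. At an unadjusted p under 0.05 the members below were 0 in all 4 comparisons as well. The tile not called in 3 of them was at S1pr2. The median difference was 68.3 points from hippocampus and 61.4 points from cortex at 6 h, and 69.2 and 62.4 points at 24 h, against 0.508, 0.331, 0.335 and 0.377 points over all tiles. The counts use cytosines found in both tables compared. With each library centred on its own mean, the members called stayed at 1106, 1106, 1083 and 1095, while the calls over all tiles tilted the other way, to 21.6% higher and 57.9% lower for blood against hippocampus and 19.9% and 27.98% for blood against cortex at 6 h. At 24 h they tilted to 20.3% and 54.9% against hippocampus and to 19.8% and 24.7% against cortex.

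Saline blood held a wide range of levels at the members. The rule asked for at least 70% in LPS 12 h blood and left saline blood free, so the narrower range of LPS blood is in part set by the choice and is given as a description. The tile means of saline blood ran from 11.3% to 94.3%, with quartiles of 30.5% and 65.1% and a median of 46.6%. At most 30%, the limit that the rule set for brain, was the level of 269 of 1107 tiles, 641 lay between 30% and 70%, and 197 were at 70% or more. In LPS 6 h blood 981 of the 1107 tiles were at 70% or more and none was at 30% or less, and in LPS 24 h blood 1000 of 1097 were at 70% or more. Of the single cytosines in the members, 29.2% to 60.2% were between 20% and 80% methylated in the LPS 6 h blood libraries, against 75.7% to 77.3% in the saline blood libraries. Over all cytosines the shares were 11.1% to 14.5% in the LPS 6 h blood libraries and 16.3% to 16.9% in the saline blood libraries. Among the members the 60.2% was that of replicate 2, and the other 3 LPS libraries had at most 38.5%.

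**Figure D2:**
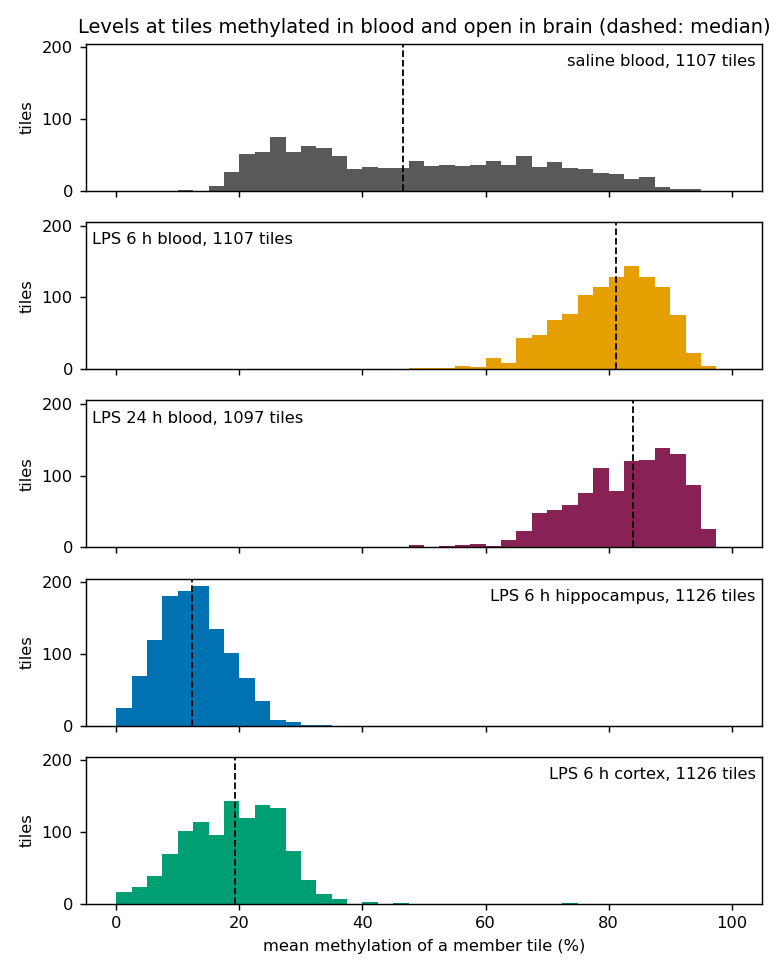
Number of member tiles by mean methylation (%) in saline blood, LPS 6 h blood, LPS 24 h blood, LPS 6 h hippocampus and LPS 6 h cortex, in bins of equal width; dashed lines are medians. Saline blood is spread from 11.3% to 94.3% around a median of 46.6%, while LPS 6 h blood is gathered around 81.1%.

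On a scale that runs from the mean of LPS hippocampus and LPS cortex to the level of LPS blood at the same time, saline blood stood at a median of 48.4% of the way at 6 h (1107 tiles) and 45.1% at 24 h (1085 tiles). The tissues' levels on this scale came from separate tables, each with its own cytosines. The opposite tiles, 482 that were at 70% or more in saline hippocampus and cortex and at 30% or less in LPS 12 h blood, gave 30.7% at 6 h (416 tiles) and 29.8% at 24 h (394 tiles). At these opposite tiles the LPS 6 h blood libraries had medians of 13.1%, 22.1%, 18.1% and 14.9%, and the saline blood libraries had 59.7%, 59.9%, 60.8% and 58.9%. Saline blood was nearer to brain than LPS blood was at both kinds of tile, which is given as a description. Both kinds were chosen with LPS 12 h blood far from saline brain and with saline blood left free. The place of saline blood on this scale is thus in part set by the choice. Replicate 2 of LPS 6 h blood was the LPS library nearest to saline at both kinds. At tiles methylated in all 3 tissues the medians were 88.4% to 91.4% in LPS 6 h blood and 89.4% to 89.7% in saline blood. Of these tiles 21.1% were still at least 5 points higher in LPS 6 h blood and 7.35% at least 5 points lower. Over all tiles the medians were 76.2% to 81.3% in LPS 6 h blood and 68.3% to 68.8% in saline blood. Whether DNA of another cell type, or another mix of blood cells, moved with the saline libraries was not tested. No RNA was measured here, so the tissue labels could not be set against expressed markers. Of 100 tiles at pan-leukocyte genes, 9 were members (1.44% of all tiles) and 7 were of the opposite kind (0.616% of all tiles), both by levels that the rules used.

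**Figure D3:**
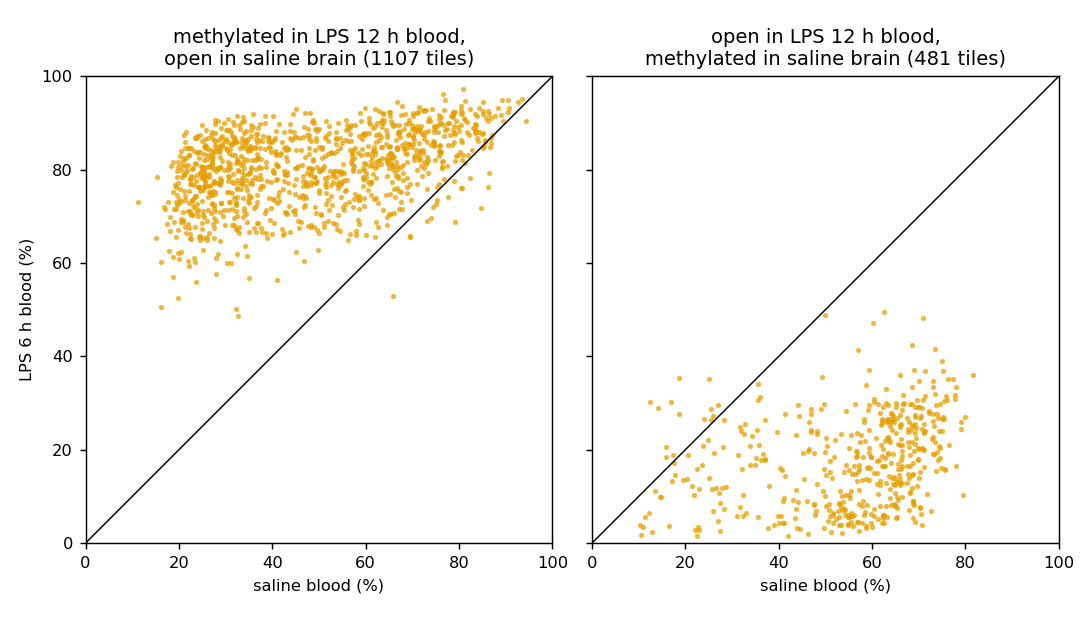
Mean methylation (%) of each tile in LPS 6 h blood (vertical) and saline blood (horizontal), for the member tiles (left, 1107) and the opposite tiles (right, 481); the line marks equal levels. Members lie above the line over nearly the whole width of saline levels, with a median difference of 32.1 points, and opposite tiles mostly below it, with a median difference of -41.5 points.

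Blood methylation at the members was higher after LPS than after saline in nearly all of them. At 6 h 994 of 1107 tiles rose and 3 fell (limma over 98135 tiles, of which 21.4% were called higher and 8.14% lower). At 24 h 988 of 1097 rose and 3 fell (96110 tiles, 21.9% higher and 7.61% lower). The median difference was 32.1 points at 6 h and 34.3 points at 24 h, against 0.339 and 0.530 points over all tiles. At 12 h, where the rule used the LPS libraries, it was 36.4 points over 1126 tiles, given without a test. The rule set LPS blood of 12 h high and left saline blood free, so a fall after LPS had less room than a rise, and the direction is not independent of the choice. The 6 h and 24 h comparisons share the 4 saline libraries. Centring each library on its mean moved the median over all tiles to -2.80 points at 6 h and -2.93 at 24 h and the calls over all tiles to 17.8% higher and 20.7% lower at 6 h and 18.2% and 20.1% at 24 h, while 967 members rose and 10 fell at 6 h and 970 rose and 13 fell at 24 h.

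The difference was larger where saline blood was lower, as a description, since the saline level is a term of the difference. Among the 269 tiles at 30% or less in saline blood the median difference at 6 h was 52.8 points, among the 341 tiles of 30% to 50% it was 41.2 points, among the 300 of 50% to 70% it was 21.1 points and among the 197 of 70% or more it was 9.06 points. Members with a transcript start in the tile had a median difference of 39.9 points (58 tiles), and those with 10 or more cytosines 40.5 points (178 tiles), against 29.5 points for those with 3 or 4 cytosines (450 tiles).

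Between LPS 24 h and LPS 6 h blood no member was called of 1085 (limma, 0 in either direction, where 0% of all tiles were called). At an unadjusted p under 0.05, 41 members were higher at 24 h and 5 lower, against 2.30% and 1.40% of all tiles. The median difference was 2.42 points, against 0.129 points over all tiles. It was 0.491 points without replicate 2 of LPS 6 h, 1.01 without replicate 2 of LPS 24 h and 3.82 without replicate 3 of LPS 24 h. On simulated data with the spread of these libraries limma recovered 83% of shifts of 40 points and 22% of shifts of 20 points in this comparison, and no smaller shift was simulated.

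Hoxb3, Hoxa3 and Hoxa4, patterning genes of the body axis, held 3 of the 10 tiles with the widest gap between LPS 12 h blood and saline brain. At Hoxb3 (chr11:96344000-96344999, inside the gene) the LPS 6 h blood libraries had 91.8%, 84.2%, 90.9% and 87.9%, and the saline blood libraries 52.2%, 57.5%, 49.5% and 66.1%. The groups did not overlap, and limma gave a difference of 32.4 ± 3.71 points (SE, adjusted p = 0.000108). In LPS 6 h hippocampus and cortex the same tile stood at 2.38% ± 0.677 and 2.57% ± 0.587 (SD, n = 4 each). Hoxa4 (chr6:52190000-52190999) had 81.7% ± 3.74 in LPS 6 h blood and 27.2% ± 6.23 in saline blood, a difference of 54.5 ± 3.92 points (adjusted p = 9.49e-06). Hoxa3 (chr6:52170000-52170999), a patterning gene of the pharyngeal region and hindbrain, had 90.5%, 77.8%, 91.2% and 80.5% in LPS 6 h blood against 66.4%, 72.4%, 63.5% and 58.2% in saline blood. The tile rose by 19.9 ± 4.00 points (limma adjusted p = 0.00353). All 3 tiles were under 5% in LPS hippocampus and cortex at 6 h, as group means.

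The other 7 tiles of widest gap were at Sh2b3, Taok3, Ccdc88b, Nfia, Carmil2, Casz1 and Ccm2l. Sh2b3, an adaptor that restrains cytokine signalling in blood cells, held a pair of members at chr5:121828000-121829999. In its second tile the LPS 6 h blood libraries had 95.6%, 84.6%, 92.7% and 95.1% and the saline blood libraries 37.4%, 34.8%, 35.7% and 35.5%, a difference of 56.1 ± 3.10 points (limma adjusted p = 4.23e-06). The saline libraries there lay close together, and no library of either group fell between 37.4% and 84.6%. At Nfia (chr4:97868000-97868999), a nuclear factor of glial development, the values were 82.5%, 72.2%, 90.03% and 93.7% in LPS 6 h blood and 22.1%, 22.0%, 20.9% and 23.5% in saline blood. The difference of 62.5 ± 4.64 points passed the test (adjusted p = 1.09e-05), and the tile stood at 1.20% ± 1.01 in LPS 6 h hippocampus. Casz1 (chr4:148952000-148952999), a zinc finger factor of heart and retina development, rose less, with 87.5% ± 3.17 in LPS 6 h blood and 64.7% ± 2.72 in saline blood. Ccdc88b, Carmil2, Taok3 and Ccm2l had group means of 83.2% to 88.1% in LPS 6 h blood and 21.6% to 28.8% in saline blood, and all 4 rose.

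**Figure D4:**
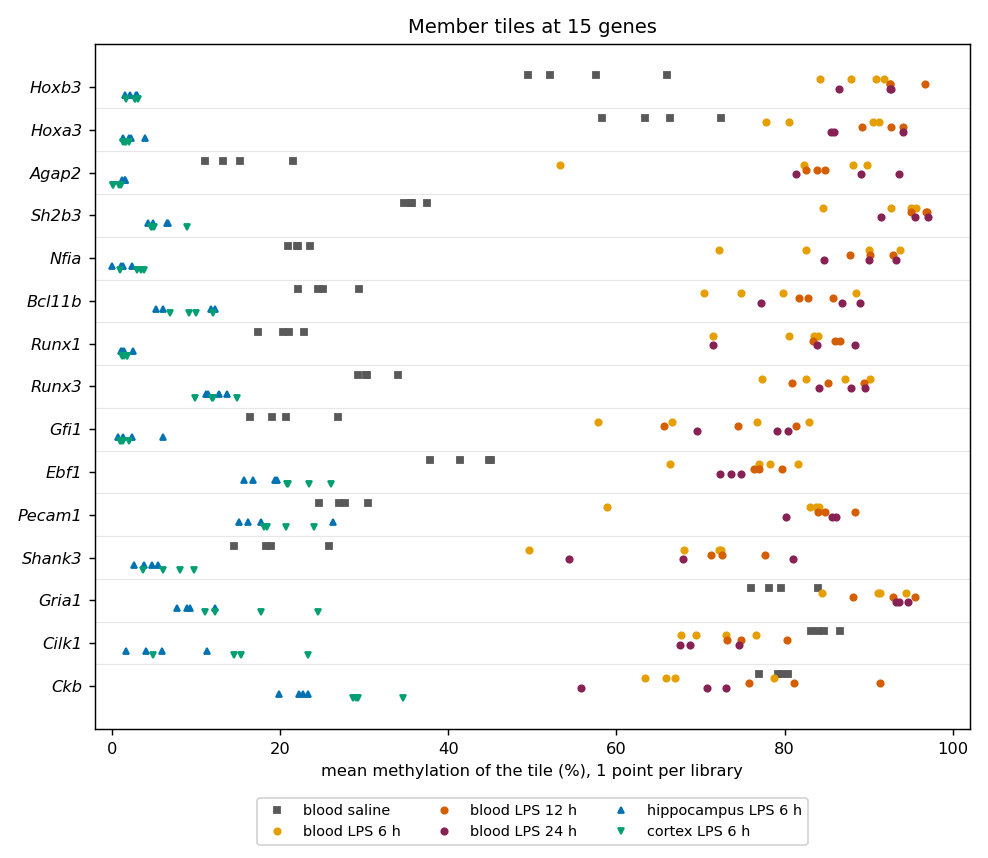
Mean methylation (%) of the member tile at 15 genes, 1 point per library; squares are saline blood, circles LPS blood (1 colour for each of 6 h, 12 h and 24 h), triangles LPS 6 h hippocampus (upward) and LPS 6 h cortex (downward). At Runx1 and Nfia the saline blood points sit near 20% and apart from both LPS blood and brain, at Gria1 they sit close below LPS blood, and at Cilk1 they sit above it.

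Members lay in genes of the blood lineages as well as in genes of the brain. Of 100 tiles at 22 measured pan-leukocyte genes 9 were members, in Cd37, Runx1 and Runx3, and of 104 tiles at 20 genes of T, B and NK cells 6 were, in Bcl11b and Ebf1. The share of members was 1.44% over all tiles and 1.51% over tiles at protein-coding genes. Of 26 tiles at neutrophil genes 1 was a member, in Gfi1, and 2 were of the opposite kind. No member was among the 55 tiles of erythroid and platelet genes, the 35 of microglia and macrophage genes or the 63 of imprinted genes. The pan-leukocyte list held 7 opposite tiles and the T, B and NK cell list 1. Microglia and macrophage genes held 2, erythroid and platelet genes 1 and imprinted genes 0, against 0.616% of all tiles. In blood at 6 h all 8 pan-leukocyte members tested rose, with a median difference of 54.0 points. All 6 members of the T, B and NK cell list rose, with a median of 41.5 points. Beside them, 89.8% of all members and 21.4% of all tiles rose, and the median over all members was 32.1 points. Few tiles stand behind each of these lists, several of them share a gene, and the lists were chosen with results of these data known.

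Runx1, a master factor of blood stem cells, had its member tile with the most cytosines at chr16:92695000-92695999, 1330 bases from a transcript start. It had 83.9%, 71.5%, 83.5% and 80.6% in LPS 6 h blood, 83.9%, 88.4% and 71.5% in LPS 24 h blood and 17.3%, 21.1%, 20.4% and 22.8% in saline blood. The groups were far apart, and the difference at 6 h was 59.5 ± 3.59 points (limma adjusted p = 5.41e-06). The tile was nearly bare in brain, with 1.57% ± 0.669 in hippocampus and 1.58% ± 0.260 in cortex after LPS (6 h). Runx3, a factor of T and NK cell differentiation, had 82.6%, 77.4%, 90.2% and 87.2% in LPS 6 h blood and 34.0%, 30.2%, 29.2% and 30.4% in saline blood at chr4:135175000-135175999. Its difference was 53.4 ± 3.498 points (adjusted p = 6.90e-06).

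Gfi1, a repressor needed for neutrophil formation, had 76.7%, 57.8%, 82.9% and 66.6% in LPS 6 h blood and 26.9%, 19.1%, 16.4% and 20.7% in saline blood (chr5:107721000-107721999). It rose by 50.2 ± 5.40 points (limma adjusted p = 7.39e-05). Ebf1, the factor that commits cells to the B lineage, rose by 33.5 ± 3.88 points at chr11:44777000-44777999, with 75.8% ± 6.56 in LPS 6 h blood and 42.3% ± 3.39 in saline blood. Bcl11b, which acts in both T cells and cortical neurons, rose by 53.1 ± 4.25 points at chr12:107928000-107928999, with 78.4% ± 7.78 in LPS 6 h blood and 25.3% ± 2.98 in saline blood (SD, n = 4 each). Pecam1, an adhesion molecule of endothelium, platelets and white cells, had 83.8%, 58.9%, 84.1% and 83.0% in LPS 6 h blood and 24.7%, 30.4%, 27.1% and 27.8% in saline blood. Replicate 2 was the lowest LPS 6 h library in each of these 4 tiles, and was still above every saline library.

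Among genes of neural cells, 16 of 287 tiles at neural transcription factors were members (Bcl11b, Nfia, Nfix, Npas3, Sox8 and Tcf4), 13 of 352 at axon guidance genes, 10 of 378 at neuronal and synaptic genes, 5 of 201 at glutamate and GABA receptors and 3 of 300 at voltage-gated channels. Of these, 14, 13, 8, 4 and 2 rose in blood at 6 h and 0 fell, beside 89.8% of all members and 21.4% of all tiles that rose. The median difference was 38.8 points at the transcription factors, 28.7 at axon guidance genes, 13.9 at neuronal and synaptic genes, 21.5 at the receptors and 9.57 at the channels. Astrocyte genes had 1 member in 62 tiles, oligodendrocyte genes 2 in 81 and endothelial genes 1 in 72, and these 4 rose as well.

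Shank3, a scaffold of excitatory synapses, was low in saline blood. Its tile at chr15:89524000-89524999 had 68.1%, 49.6%, 72.2% and 72.4% in LPS 6 h blood against 25.8%, 18.9%, 14.5% and 18.3% in saline blood, a difference of 46.2 ± 5.27 points (limma adjusted p = 0.000106). Gabbr2, a subunit of the GABA-B receptor, rose by 42.5 ± 4.78 points, with 75.9% ± 9.01 in LPS 6 h blood and 33.4% ± 4.25 in saline blood. Gria1, a subunit of AMPA receptors, was already high in saline blood, with 91.1%, 84.5%, 94.4% and 91.3% in LPS 6 h blood against 79.6%, 83.9%, 76.1% and 78.1% in saline blood. It rose by 10.9 ± 2.45 points (adjusted p = 0.00665), although its lowest LPS library was within 1 point of its highest saline library.

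Tcf4, a helix-loop-helix factor of neuronal development, was likewise high in saline blood. It had 90.01% ± 0.807 in LPS 6 h blood and 77.9% ± 2.73 in saline blood (SD, n = 4 each), and rose by 12.1 ± 1.66 points (limma adjusted p = 0.000337). Rbfox3, which encodes the neuronal nuclear antigen NeuN, had 67.9%, 61.5%, 72.3% and 71.97% in LPS 6 h blood against 57.1%, 59.7%, 57.6% and 59.7% in saline blood. It was called at 6 h (9.90 ± 3.11 points, adjusted p = 0.0347) and not at 24 h (11.3 ± 3.88 points, adjusted p = 0.0558).

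Of the glial tiles, Mbp, a main protein of myelin, rose by 20.3 ± 4.02 points (chr18:82559000-82559999), with 67.8% ± 2.87 in LPS 6 h blood and 47.6% ± 7.19 in saline blood. Cspg4, a proteoglycan of oligodendrocyte precursors and pericytes, had 76.4% ± 6.61 in LPS 6 h blood and 25.4% ± 3.86 in saline blood, where saline blood lay near the 21.8% ± 2.05 of LPS 6 h hippocampus. Slc4a4, the sodium bicarbonate cotransporter of astrocytes, had 85.5% ± 3.33 in LPS 6 h blood and 70.2% ± 2.60 in saline blood.

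The tiles with the largest difference between LPS 6 h and saline blood, named for that reason and so not tested anew, included those at Rab31, Taok3, Ccm2l, Rnf220 and H2-DMa. Rab31, a small GTPase of vesicle traffic, had 91.6%, 80.1%, 92.2% and 85.6% in LPS 6 h blood and 19.3%, 23.6%, 25.9% and 15.5% in saline blood, a difference of 66.3 points. H2-DMa, which loads peptides onto MHC class II, had 84.6% ± 9.33 in LPS 6 h blood and 21.3% ± 1.13 in saline blood. In libraries of LPS 24 h blood Rab31 had 90.6%, 93.5% and 90.4% and H2-DMa 89.1%, 91.1% and 85.6%, again far above saline. Across the run of 3 tiles in Agap2 the means were 78.4% ± 17.1, 86.3% ± 7.16 and 78.0% ± 14.2 in LPS 6 h blood and 15.3% ± 4.50, 28.3% ± 2.72 and 22.4% ± 7.42 in saline blood. In the first of these replicate 2 of LPS 6 h had 53.2% and the others at least 82.3%.

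A few members went the other way in blood. Cilk1, a kinase of cilia, had 69.5%, 76.6%, 73.0% and 67.7% in LPS 6 h blood against 83.2%, 84.0%, 84.6% and 86.6% in saline blood (chr9:78124000-78124999). Ckb, the brain type of creatine kinase, had 68.8% ± 6.80 in LPS 6 h blood and 79.1% ± 1.497 in saline blood. Ctif, a factor of nuclear cap-dependent translation, had 79.2% ± 4.27 in LPS 6 h blood and 86.3% ± 2.65 in saline blood. These were the 3 tiles that fell at 6 h, with differences of -12.9, -10.3 and -7.15 points. At Ckb and Ctif the highest LPS library still overlapped the saline libraries. At 12 h LPS blood had 76.1% ± 3.76 at Cilk1 and 82.8% ± 7.92 at Ckb (SD, n = 3 each). The mean at Ckb was then above saline blood, but its libraries had 75.8%, 81.2% and 91.4% against 77.0% to 80.4% in saline blood. The groups thus overlapped, and the rule had asked for a high level in LPS 12 h blood. At 24 h, against the same saline libraries, the differences were -14.3 points at Cilk1 and -12.5 at Ckb, and Ctif was not measured. Trim9, a ubiquitin ligase of neurons, had 76.1% ± 7.48 in LPS 6 h blood and 80.6% ± 2.45 in saline blood and was not called. All 4 were chosen by rule as the smallest differences, so no p-value is given for them, and in saline blood all of them were at least 79.1% methylated.

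The 2 brain regions were not alike at the members. In LPS 6 h libraries hippocampus was below cortex in 265 of 1126 members and above it in 1 (limma, all tiles 9.43% lower and 0.977% higher). At 24 h it was below in 338 of 1111 and above in 2 (all tiles 9.37% lower and 1.12% higher). The median difference was -6.02 points at 6 h and -5.65 at 24 h, against -0.471 and -0.157 points over all tiles. At 12 h 0 members were called (limma, 0% of all tiles in either direction). At an unadjusted p under 0.05, 131 members were lower and 19 higher, against 8.71% and 3.63% of all tiles. The median difference at 12 h was -2.05 points, -0.126 without replicate 2 of hippocampus and -3.89 without replicate 3 of cortex. On simulated data limma found 16% of shifts of 40 points in that comparison, so little could be detected there.

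The count at 6 h depended on single libraries, and the share over all tiles moved as well. It was 428 members lower without replicate 2 of cortex (all tiles 11.6% lower) and 131 without replicate 2 of hippocampus (all tiles 5.70% lower). Without replicate 1, 3 or 4 of hippocampus the count was 170, 168 or 134 (all tiles 7.12%, 7.13% or 5.92% lower), and without replicate 4 of cortex 141. At 24 h it was 207 without replicate 4 of hippocampus. With each library centred on its mean, the median over the members was -2.81 points at 6 h and -3.19 at 24 h and the median over all tiles 2.75 and 2.30 points, and 271 and 358 members were called lower and 20 and 19 higher. The calls over all tiles at 6 h were then 11.0% lower and 7.86% higher, against 9.43% and 0.977% without centring. For the count without replicate 4 of cortex and for these 24 h counts, the share over all tiles is not given here. Those counts alone do not show whether the members moved apart from other tiles.

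**Figure D5:**
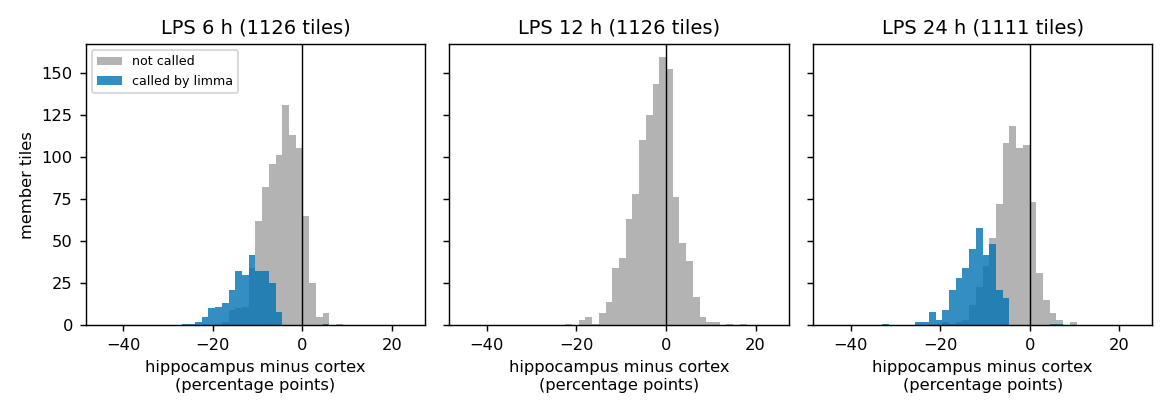
Difference of hippocampus minus cortex (percentage points) at the member tiles in LPS libraries of 6 h, 12 h and 24 h; bars count tiles, with tiles called by limma in blue and others in grey. Differences lean below 0 at each time, with medians of -6.02, -2.05 and -5.65 points, and called tiles are found at 6 h and 24 h only.

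The tiles with the lowest hippocampus relative to cortex, averaged over the 3 times, included those at Nrp2 and S1pr2. Nrp2, a receptor for semaphorins that guides axons, had 7.90%, 16.4%, 11.2% and 7.09% in LPS 6 h hippocampus and 34.3%, 21.2%, 38.7% and 35.0% in LPS 6 h cortex (chr1:62717000-62717999). At 24 h the difference was -24.8 points. These tiles were chosen for this difference, so it is given without a test. S1pr2, a sphingosine phosphate receptor, was different, because the tables listed different cytosines of its tile. The 6 h cortex table had 72.6% there in LPS cortex, and LPS hippocampus had 17.6% in the 6 h hippocampus table. On the 3 cytosines in both, hippocampus had 62.6% ± 6.08 and cortex 74.98% ± 1.25, a difference of -12.4 points, and at 12 h and 24 h, on other cytosines, the differences were -2.73 and -2.74 points. This was the tile where blood was not called above cortex at 6 h (2.05 ± 3.02 points) and above neither brain region at 24 h.

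Slit1, a secreted axon guidance cue, was also lower in hippocampus, with 9.93%, 12.5%, 7.26% and 4.38% in LPS 6 h hippocampus and 29.3%, 16.3%, 41.7% and 31.5% in LPS 6 h cortex, a difference of -21.2 ± 4.71 points (limma adjusted p = 0.0229). In blood its tile was called higher at 6 h (8.00 ± 1.99 points, adjusted p = 0.0114) and not at 24 h (2.92 ± 3.99 points, adjusted p = 0.668). On the other side, Lgmn, a lysosomal protease, had 16.5%, 17.5%, 15.4% and 17.6% in LPS 6 h hippocampus and 10.7%, 10.9%, 13.4% and 9.36% in LPS 6 h cortex. Chosen for being higher in hippocampus, it differed by 5.62 points at 6 h and 5.83 points at 24 h, without a test. Thy1 and Brd1, the other tiles chosen as highest in hippocampus, were not called at any of the 3 times on shared cytosines.

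The members differed far less between LPS and saline in brain than in blood, which is given as a description. The rule held saline brain low and LPS 12 h blood high and left saline blood free, so this contrast is in part set by the choice. In hippocampus the median of LPS minus saline was -3.38 points for 6 h, -0.570 for 12 h and -1.89 for 24 h (all tiles -0.732, -0.220 and -0.257). In cortex it was -0.201, -0.941 and 0.926 points in the same order (all tiles 0.00647, -0.0535 and 0.0994). In hippocampus at 6 h 349 of 1126 members lay at least 5 points below saline and 3 at least 5 points above, against 19.8% and 0.380% of all tiles. Over all tiles of the 3 tables, the LPS 6 h hippocampus libraries had medians of 49.2% to 56.1% and the saline ones 60.4% to 62.1%, and what part this had in the members' values was not tested. In cortex at 24 h, 103 of 1125 members (9.16%) lay at least 5 points above saline and 13 (1.16%) at least 5 points below, against 3.54% and 1.16% of all tiles.

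At the limit of 70%, the members just inside had 70.01% (Bcl9l), 70.03% (AI661453) and 70.05% (Apc2) in LPS 12 h blood, and tiles just outside had 69.99% (Hoxa5) and 69.94% (Esrrg). Hoxa5 (chr6:52203000-52203999) had 68.2% ± 11.6 in LPS 6 h blood, 15.2% ± 3.32 in saline blood and 1.19% ± 0.369 in LPS 6 h hippocampus. With limits of 20% in brain and 80% in blood 340 tiles were members, and 658 were when at least 5 cytosines were asked for in each tissue.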

How the data were processed

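The authors deposited 9 tables, 1 per tissue and time, of percent methylation (0 to 100) at single cytosines of either strand. Per the submitters' processing notes, the tools were methylKit, Bismark, SAMtools, Bowtie2, FastQC and Trim Galore and the build GRCm38/mm10. Their settings, any coverage minimum and any normalisation: not given in the sources used here. Per the labels' protocols, 100 ng of DNA went into each library (Ovation RRBS Methyl-Seq). The tables give no read counts, so depth is unknown and error comes from the spread between libraries. They hold 1064020 to 1360660 autosomal cytosines, and 0 per-sample columns were left unused. Saline values repeat unchanged in the 3 tables of a tissue. No 2 libraries of a table had equal values at over 48.3% of cytosines, levels of 0 and 100% included.

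Percentages were averaged over the cytosines of each 1 kb tile with at least 3, on chromosomes 1 to 19, without a filter on level. Tests between tables used cytosines in both. The scale from LPS brain to LPS blood, and the choice of tiles highest and lowest in hippocampus against cortex, used the cytosines of each table. Tile means were compared with limma 3.58.1 (R 4.3.3), using eBayes with a trend and two-sided p-values adjusted by Benjamini-Hochberg over all tiles. A tile was called when the adjusted p was under 0.05 and the means lay 5 or more points apart. The steps were checked on simulated data with 200 shifted tiles. In the blood comparisons with saline, 98% (6 h) and 88% (24 h) of shifts of 40 points were recovered. Levels of saline blood are from the 6 h table and those of saline brain from the 12 h tables unless a comparison with LPS is given. Python 3.11.15, numpy 2.4.6, pandas 2.3.3 and matplotlib 3.10.9 were used for the rest.

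Groups came from the labels. They do not say whether replicates are separate animals or whether tissues share animals, so the p-values reflect only how these libraries vary, and that may be technical. The members, gene lists and tests were chosen with earlier results of these data known. Tiles were assigned to protein-coding genes of RefSeq (GRCm38.p6) within 1 kb, a narrowing of the planned gene span. All 168152 cytosines of the 6 h blood table in promoter windows were a C on the stated strand. The promoter table does not cover chromosome 18. Named tiles, at most 1 per gene and rule, were the 10 with the widest gap between LPS 12 h blood and saline brain, the 6 largest and 4 smallest differences of LPS 6 h and saline blood, the 2 with most cytosines per gene list, the 3 longest runs, the 3 highest and 3 lowest in hippocampus against cortex and the 3 on each side of the 70% limit. Some tiles that this rule named are not reported here. Alternatives were 5 cytosines a tile, a mean of 5 to 95%, centred libraries, an arcsine scale, eBayes without trend, a difference of 10 points, stricter members, a replicate block and each library left out.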

Additional observations from a re-analysis of the deposited data

Results flagged for a closer look

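In LPS 12 h cortex replicate 3 stood apart, with a median over the members of 12.0% where the others had 19.3% to 20.6%. The medians of LPS hippocampus over the members moved against those of LPS blood. LPS minus the saline mean averaged -3.86 points in hippocampus and 35.2 in blood at 6 h, and -2.25 and 38.0 at 24 h. Every LPS library of these 2 times lay on its tissue's side of the saline mean. At 24 h replicate 1 of LPS hippocampus (15.5%) was still within the saline range of 15.3% to 16.2%. Over all tiles the mean of library medians moved the same ways. In hippocampus it was 53.7% after LPS and 61.4% after saline at 6 h, and 54.2% and 58.8% at 24 h. In blood it was 79.4% and 68.6% at 6 h, and 80.4% and 68.4% at 24 h. At 12 h 2 of the 3 LPS hippocampus libraries (16.6% and 18.7%) lay above the saline libraries. The difference between the tissues was not tested.

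In the 52 named member tiles 416 groups of 4 libraries were checked and 20 had a library far from the others. Chance flags about 1 in 20 groups. In blood, replicate 2 of LPS 6 h was low at Gabbr2 (62.3%), Pecam1 (58.9%) and 2700081O15Rik (75.02%), where the other libraries had at least 80.1%, 83.0% and 91.3%, and a saline library was low at Casz1 (60.6%). In LPS 12 h cortex, replicate 3 was low at Rnf220 (3.62%), Bcl11b (5.01%) and Apc2 (16.2%), and other libraries of that group were high at Ebf1 (28.3%), Agap2 (1.82%) and Brd1 (27.4%). In other cortex groups single libraries were high at Sh2b3 (8.92%), Ckb (34.7%), Cilk1 (21.5%), Trim9 (18.5%), Agap2 (1.89%) and Bcl9l (21.0%). In LPS hippocampus single libraries were high at Hoxa4 (3.11%), Rnf220 (6.01%) and Agap2 (3.18%) at 24 h and at Casz1 (3.14%) at 6 h.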

How the results depend on the processing

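The shares of members called between LPS and saline blood and between LPS blood and LPS brain stayed within 1.5 times of the main share under every alternative run: 86.4% to 95.8% rose in blood at 6 h and 86.2% to 97.6% at 24 h, and at least 99.8% were higher in blood than in brain. Of all tiles, 16.6% to 30.1% rose in blood at 6 h and 17.2% to 31.7% at 24 h under the same settings. LPS blood was above LPS brain in 18.6% to 40.2% of all tiles. For hippocampus below cortex the share of members was 23.5% at 6 h and 30.4% at 24 h (all tiles 9.43% and 9.37%). It was 15.6% and 20.2% at a difference of 10 points, where 8.15% of all tiles were lower at 6 h. With stricter members, which leave the shares over all tiles as they were, it was 15.3% and 18.05%. Leaving out a library gave 11.6% (all tiles 5.70%) to 38.0% (all tiles 11.6%) at 6 h and 18.6% to 28.3% at 24 h. At 12 h the share called either way was 0.0929% with a mean of 5 to 95% and 2.22% with centred libraries; leaving out both low libraries, chosen after seeing the data, left it at 0. The cause of these shifts was not tested. For the other alternatives of hippocampus against cortex at 12 h and 24 h, the shares over all tiles are not given here. The deviations of same-numbered libraries from their group means were correlated, and no comparison had every correlation over 0.1. Single correlations ran from -0.437 to 0.174. Only same-numbered libraries were compared, so these values do not decide whether some replicates belong together. Whether the numbers mark shared animals or batches is not given in the labels. With the replicate block 985 members rose and 3 fell in blood at 6 h, 957 and 2 at 24 h, and 198 and 273 were lower in hippocampus than cortex at 6 h and 24 h. Of all tiles, 20.7% rose and 7.69% fell in blood at 6 h with that block, and 19.3% and 6.54% at 24 h. Hippocampus was then lower than cortex in 6.24% of all tiles at 6 h. Of the values of single named tiles under an alternative, 1399 kept direction and side of the threshold, 51 lost the call, 7 gained it and 4 turned round, all small. Brd1 in blood at 6 h was 0.641 without replicate 3 of LPS and 1.26 without replicate 4 of saline, against -0.180 points, and leaving out a library gave -1.09 to 1.26. Slit1 in blood at 24 h was -0.532 with centred libraries and -2.01 without replicate 2 of LPS, against 2.92 points, and leaving out a library gave -2.01 to 7.24. Unknown depth and tiles of 3 or 4 cytosines limit single values.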
